A study of Mus musculus with 12 samples.

Results

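TRAJ21, TRAJ23, TRAJ27, TRAJ28 and TRAJ32 are 5 of the joining (J) segments from which the alpha chain of the T cell receptor (TCR) is built. They were followed in CD8+ T cells sorted with an Rpl18 tetramer, a reagent that marks cells specific for an antigen of the MC38 tumor, a mouse colon adenocarcinoma line. The members were all rows of the alpha-chain (TRA) table whose J call, without its allele, was 1 of the 5 segments. That gave 1575 of 10521 rows and 110888 of 731688 TRA reads, or 15.2% of the reads. By segment there were 481 rows of TRAJ21, 205 of TRAJ23, 207 of TRAJ27, 109 of TRAJ28 and 573 of TRAJ32. Of 45 TRAJ segments with a row, 43 passed the filter on low segments and were tested, all 5 described here among them.

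The study sorted these cells on day 10 after MC38 injection from the tumor and from the tumor-draining lymph node (TDLN). The mice were wild type (WT) or carried a CD8-specific knockout (KO) of TrIP, the product of Pik3ip1, a membrane protein known to restrain PI3K signalling in T cells. The 12 libraries form 4 groups of 3 by genotype and tissue, and all mice of both genotypes bore MC38 tumors. What drives the deletion, the age and strain of the mice, and whether libraries pool animals are not given in the sources used here. TRA rows cannot check the knockout or the sort. One library, WT tumor 2, has the number 1 in the tables and was identified through the name of the library.

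An alpha chain gene is assembled when 1 variable (V) segment is joined to 1 J segment. The enzymes trim both ends and may add bases that neither segment encodes, and the join is the CDR3, the loop that lies over the peptide. A cell and its progeny keep their join, so a large share for a J segment can come from many separate joins or from a few expanded clones. TRAJ segments lie in a row downstream of the TRAV segments, and those near the V side tend to be used first in thymocyte development. Counted from the V side of 60 Traj genes on chromosome 14, Traj32 is number 30, Traj28 number 34, Traj27 number 35, Traj23 number 39 and Traj21 number 41, and Traj30 and Traj22, number 32 and number 40, lie among them.

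The libraries held 15832 to 94874 productive TRA reads, with a median of 48823.5, out of 106344 to 654080 assembled reads. No molecular identifiers are described, so values are reads and not cells, and intervals and the limit that a count of 0 allows (3 reads of the library's total) cover counting error only. A larger clone and more TCR RNA per cell cannot be told apart. The run log marks 4 libraries, all from TDLN, as timed out, namely WT TDLN 1 and 3 and KO TDLN 1 and 2. Whether libraries come from separate animals is not stated, so the p-values measure only the spread between these libraries. Each library name starts with a letter that 1 TDLN and 1 tumor library share, and whether the letter marks a mouse is not stated.

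Libraries with different letters shared clonotypes of these segments, which touches every result that follows. Reads with the same CDR3 bases, V segment and J segment were counted as 1 clonotype. Counting clonotypes of 10 reads or more, 11 of 60 pairs of libraries with different letters shared at least 1, and 0 of 6 pairs with the same letter did. WT TDLN 1, WT tumor 4 and KO tumor 1 shared 3 with one another, 1 each of TRAJ23, TRAJ28 and TRAJ32. Those 3 were 21.4% of the 14 in WT tumor 4 and 33.3% of the 9 in KO tumor 1. Sequences found under different letters at any read count held 85.6% to 92.6% of a segment's productive reads, against 79.4% over all tested segments. Such sequences, here and below, include large clonotypes with a single read under another letter. The second TRAJ32 sequence, for example, had 6127 reads in KO TDLN 1 and 1 in WT tumor 4. What this sharing comes from was not tested. Beside the KO and WT comparisons, values without such sequences are given as well.

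The clonotypes that carry most of the reads are shown first, because nearly every large share of a segment is 1 of them. Sequences are CDR3s read 5′ to 3′ from the deposited rows, on chromosome 14, and capitals mark the J end as it recurs in the rows of that segment. Each is named by its J segment, its rank within the segment and its V segment.
TRAJ32 first, TRAV16: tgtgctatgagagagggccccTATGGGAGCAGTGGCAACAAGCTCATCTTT
TRAJ32 second, TRAV16: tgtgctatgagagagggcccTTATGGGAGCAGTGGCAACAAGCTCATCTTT
TRAJ28 first, TRAV1: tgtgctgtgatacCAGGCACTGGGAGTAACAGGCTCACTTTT
TRAJ28 second, TRAV6-7: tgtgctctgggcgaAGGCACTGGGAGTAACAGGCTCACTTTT
TRAJ27 first, TRAV16: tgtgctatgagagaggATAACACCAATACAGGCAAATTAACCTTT
TRAJ27 second, TRAV7-3: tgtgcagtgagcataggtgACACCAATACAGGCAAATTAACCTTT
TRAJ23 first, TRAV6-5: gggacTTATAACCAGGGGAAGCTTATCTTT
TRAJ21 first, TRAV3-3: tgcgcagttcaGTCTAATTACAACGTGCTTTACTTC
TRAJ21 second, TRAV14-2: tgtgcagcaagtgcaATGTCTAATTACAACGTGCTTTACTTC
In WT tumor 4 the first TRAJ32, TRAJ28 and TRAJ23 sequences stood together, at 17.8%, 9.90% and 13.6% of productive TRA reads. KO tumor 2 held both TRAJ27 sequences, at 15.3% and 5.50%, and WT tumor 3 held the first TRAJ21 sequence at 16.1%. The first TRAJ23 sequence does not begin with a cysteine codon, which opens the other 8.

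Together the 5 segments took 0.0791% to 42.3% of productive TRA reads in a library. In TDLN they took 4.59%, 4.26% and 3.85% in WT 1, 3 and 4, and 17.4%, 3.22% and 8.65% in KO 1, 2 and 3. In tumor they took 0.0791%, 17.2% and 42.3% in WT 2, 3 and 4, and 26.5%, 22.0% and 8.18% in KO 1, 2 and 3. WT TDLN was the even group as counted here, and WT tumor held both the lowest and the highest library of the 12. The 95% Wilson interval of the highest, WT tumor 4, was 41.9% to 42.6%, far narrower than the gap to the next library. The group means were 4.24% ± 0.371 in WT TDLN and 9.74% ± 7.13 in KO TDLN (SD, n = 3 each). They were 19.9% ± 21.2 for tumors of WT and 18.9% ± 9.54 for those of KO mice (SD, n = 3 each). The evenness of WT TDLN depended on how TRAJ7 rows were treated. With TRAJ7 in its deposited frame, WT TDLN was at 9.79% ± 8.32 and KO TDLN at 9.80% ± 7.15 (SD, n = 3 each).

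**Figure D1:**
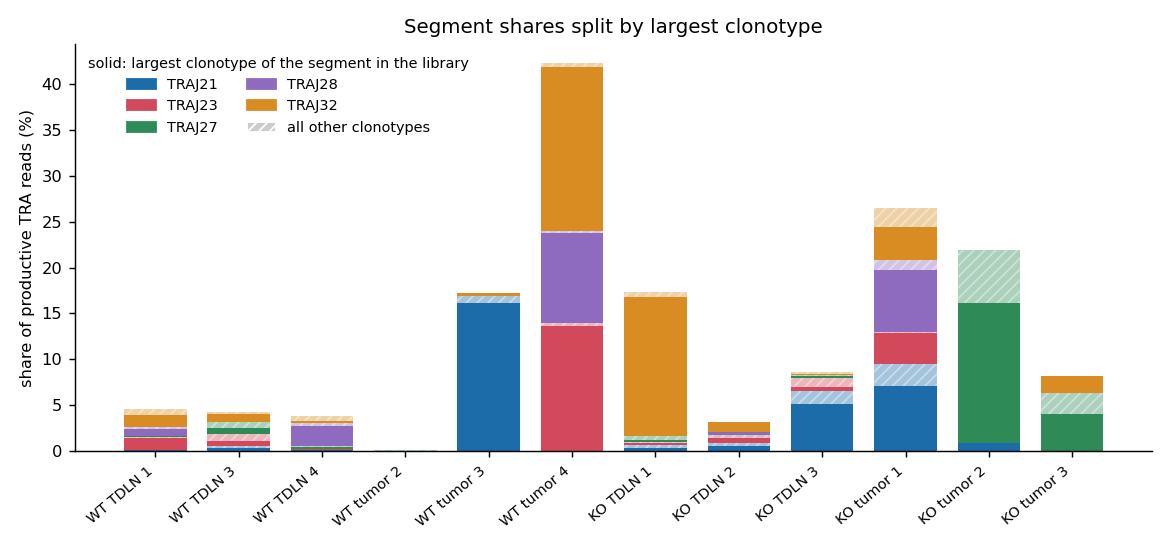
Bars give the share of productive TRA reads (%) of the 5 segments in each of the 12 libraries, stacked by segment in the order TRAJ21 to TRAJ32. The solid part of each colour is the segment's largest clonotype in that library and the hatched part all its other clonotypes, and most of the height of WT tumor 4 (42.3%) is solid.

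TRAJ32 had the highest mean share of the 5, 3.92% ± 6.32 (SD, n = 12 libraries), which was rank 7 of 43 segments. In TDLN its share was 1.96%, 1.04% and 0.796% in WT 1, 3 and 4, and 15.7%, 1.14% and 0.337% in KO 1, 2 and 3. In tumor it was 0%, 0.303% and 18.3% in WT 2, 3 and 4, and 5.66%, 0.00237% (1 read) and 1.80% in KO 1, 2 and 3. WT tumor 4 and KO TDLN 1 were high, and the WT and KO libraries overlapped in both tissues. WT tumor 2 had no productive TRAJ32 read, which allows a share of up to 0.00316%. Without each library's own largest TRAJ32 clonotype, the highest share left was 2.10%, in KO tumor 1, and the other 11 libraries lay at 0.644% or below.

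The height of TRAJ32 in its top libraries came from sequences that differ by 1 base. The first sequence had 12300 reads in WT tumor 4 (17.8%), 842 in KO tumor 1 (3.56%), 1082 in WT TDLN 1 (1.31%) and 5 in KO TDLN 1. The second, which differs from it by C21T (positions counted from 1 at the 5′ end of the CDR3), had 6127 reads in KO TDLN 1 (15.1%) and 1 in WT tumor 4. Both encode the same residues with the same TRAV16, so the largest TRAJ32 clonotypes of KO TDLN 1 and WT tumor 4 were the same alpha chain CDR3 written with different codons. The other TRAJ32 clonotypes at 1% or more of a library were another TRAV16 sequence, in KO tumor 3 (1.76%, and 0.836% in WT TDLN 3) and a pair with TRAV14-3, in KO tumor 1 (1.25%) and KO TDLN 2 (1.11%).

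TRAJ28 was the rarest of the 5, with a mean share of 1.82% ± 3.45 (SD, n = 12) and rank 13. Its share in TDLN was 1.00%, 0% and 2.55% in WT 1, 3 and 4, and 0%, 0.377% and 0.00499% (2 reads) in KO 1, 2 and 3. Its share in tumor was 0%, 0% and 10.0% in WT 2, 3 and 4, and 7.89%, 0% and 0% in KO 1, 2 and 3. TRAJ28 thus had no productive read in 6 libraries, and 1 WT and 1 KO tumor held nearly all of it in tumor. In those 6 libraries a count of 0 allows shares of up to 0.00316% to 0.00741%. The largest TRAJ28 clonotype of WT tumor 4 was the TRAV1 sequence, with 6823 reads (9.90%), which also had 231 reads in KO tumor 1 (0.977%) and 649 in WT TDLN 1 (0.788%). That of KO tumor 1 was the TRAV6-7 sequence, with 1610 reads (6.81%). One more sequence, called TRAV13-1 for 89.9% of its reads and TRAV13-3 for the rest, was the largest in WT TDLN 4, with 349 TRAV13-1 reads (2.20%). Without its own largest clonotype, TRAJ28 stayed above 1% only in KO tumor 1, at 1.07%.

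TRAJ27 was high in 2 KO tumors and at 1.41% or below in every other library. In TDLN its share was 0.0923%, 1.41% and 0.284% in WT 1, 3 and 4, and 0.669%, 0.116% and 0.362% in KO 1, 2 and 3. In tumor it was 0.0664%, 0.00354% (2 reads) and 0% in WT 2, 3 and 4, and 0.00423% (1 read), 21.1% and 6.37% in KO 1, 2 and 3. KO tumor 2 and 3 lay far above all 3 WT tumors, but KO tumor 1 lay among them, so the groups overlapped. The mean over the 12 libraries was 2.54% ± 6.12 (SD), rank 10. The same clonotypes were the largest in both high libraries: the TRAV16 sequence had 6454 reads in KO tumor 2 (15.3%) and 1007 in KO tumor 3 (2.05%), and the TRAV7-3 sequence had 2324 (5.50%) and 1961 (3.99%). Without each library's own largest clonotype TRAJ27 still took 5.85% of KO tumor 2 and 2.38% of KO tumor 3, because the other sequence of the pair was left.

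The TRAV16 sequence of TRAJ27 was also read in WT TDLN 3 (333 reads, 0.687%) and KO TDLN 1 (96 reads, 0.237%). These 4 libraries carry 4 different starting letters. After sequences shared between letters were left out of both the segment and the totals, TRAJ27 took 4.63% of KO tumor 2 and 7.02% of KO tumor 3, but 6.22% of WT tumor 2. Those shares rest on 79, 139 and 54 reads. Only 868 to 5146 TRA reads were left in a tumor library, against 12237 to 28260 in a TDLN library. Sequences 1 base away from a left-out one remain in these counts where they are not shared themselves.

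TRAJ23 was at 1% or more in 5 libraries, and in all of them at under 1% without the library's own largest TRAJ23 clonotype. In TDLN its share was 1.39%, 1.31% and 0.133% in WT 1, 3 and 4, and 0.272%, 0.763% and 1.41% in KO 1, 2 and 3. In tumor it was 0%, 0% and 13.9% in WT 2, 3 and 4, and 3.42%, 0% and 0% in KO 1, 2 and 3. Every TDLN library held TRAJ23, while 4 of 6 tumor libraries had no productive read and the other two held mostly 1 sequence. Out of frame, KO tumor 3 had 345 TRAJ23 reads and KO tumor 2 had 2. That TRAV6-5 sequence had 9390 reads in WT tumor 4 (13.6%), 798 in KO tumor 1 (3.38%), 1086 in WT TDLN 1 (1.32%) and 6 in KO TDLN 2. It held 84.4% of productive TRAJ23 reads, the highest such share among the 5 segments. It was listed with 30 bases and no opening cysteine codon, and whether its V side is complete was not tested. It was the only TRAJ23 clonotype at 1% or more of a library. The mean over the 12 libraries was 1.89% ± 3.92 (SD), rank 11.

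TRAJ21 had reads in all 12 libraries, with a mean share of 3.01% ± 5.33 (SD) and rank 9. In TDLN its share was 0.158%, 0.506% and 0.0947% in WT 1, 3 and 4, and 0.719%, 0.831% and 6.53% in KO 1, 2 and 3. In tumor it was 0.0126%, 16.9% and 0.00145% (1 read) in WT 2, 3 and 4, and 9.51%, 0.854% and 0.0203% in KO 1, 2 and 3. In TDLN all 3 KO libraries lay above all 3 WT libraries, while in tumor the genotypes overlapped. The first sequence, with TRAV3-3, had 9111 reads (16.1%) in WT tumor 3, while KO TDLN 3 held 2067 (5.15%) and KO tumor 3 held 8. A second deposited table of all chains, which covers 8 of the libraries, lists 0 reads of that CDR3 in WT tumor 3 and KO TDLN 3, so the 2 tables differ for it. The largest TRAJ21 clonotype of KO tumor 1 was the TRAV14-2 sequence, with 1673 reads (7.08%), followed by 1 clonotype each with TRAV9-4 (1.15%) and TRAV13-2 (1.02%). Without its own largest clonotype TRAJ21 was at 2.43% in KO tumor 1, 1.38% in KO TDLN 3 and 0.788% or below elsewhere.

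**Figure D2:**
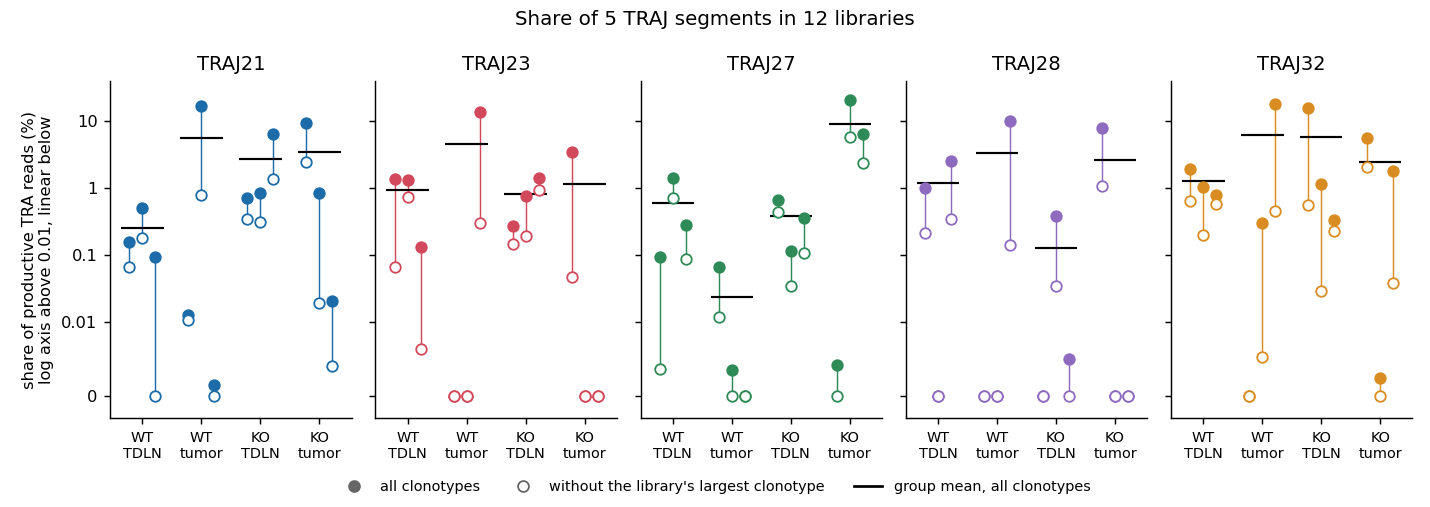
Each panel gives the share of productive TRA reads (%, log axis above 0.01) of 1 segment in the 3 libraries of each group. Filled points are all clonotypes, open points the same library without its largest clonotype of that segment, and black lines group means, and the drop from filled to open is long in the high libraries, as for TRAJ23 in WT tumor 4 (13.9% to 0.300%).

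The sizes of the clonotypes were uneven in all 5 segments. The largest clonotype of a segment held 58.2% (TRAJ32), 75.2% (TRAJ28), 58.9% (TRAJ27), 84.4% (TRAJ23) and 69.9% (TRAJ21) of the segment's productive reads. Among libraries with 10 reads or more, the library's own largest clonotype held over 50% of the segment in 8 of 10 libraries for TRAJ32, 5 of 5 for TRAJ28, 7 of 9 for TRAJ27, 5 of 8 for TRAJ23 and 10 of 11 for TRAJ21. At the other end, the median clonotype had 1 read in each segment, and 59.7% (TRAJ23) to 73.1% (TRAJ28) of clonotypes were single reads, against 65.8% over all tested segments. Many small clonotypes differed by 1 base from one at least 100 times larger with the same V and J segments in the same library: 41.8% of TRAJ23, 46.9% of TRAJ27, 52.7% of TRAJ21, 60.6% of TRAJ28 and 61.5% of TRAJ32 clonotypes, against 49.2% over all tested segments. They held 1.13% to 2.22% of a segment's reads.

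Across the 5 segments, 15 clonotypes reached 1% of a library: 5 of TRAJ32, 4 of TRAJ21, 3 of TRAJ28, 2 of TRAJ27 and 1 of TRAJ23. Of these 15, 8 were found at 10 reads or more in libraries with different letters. TRAV16 was the V segment of 4 of them.

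**Figure D3:**
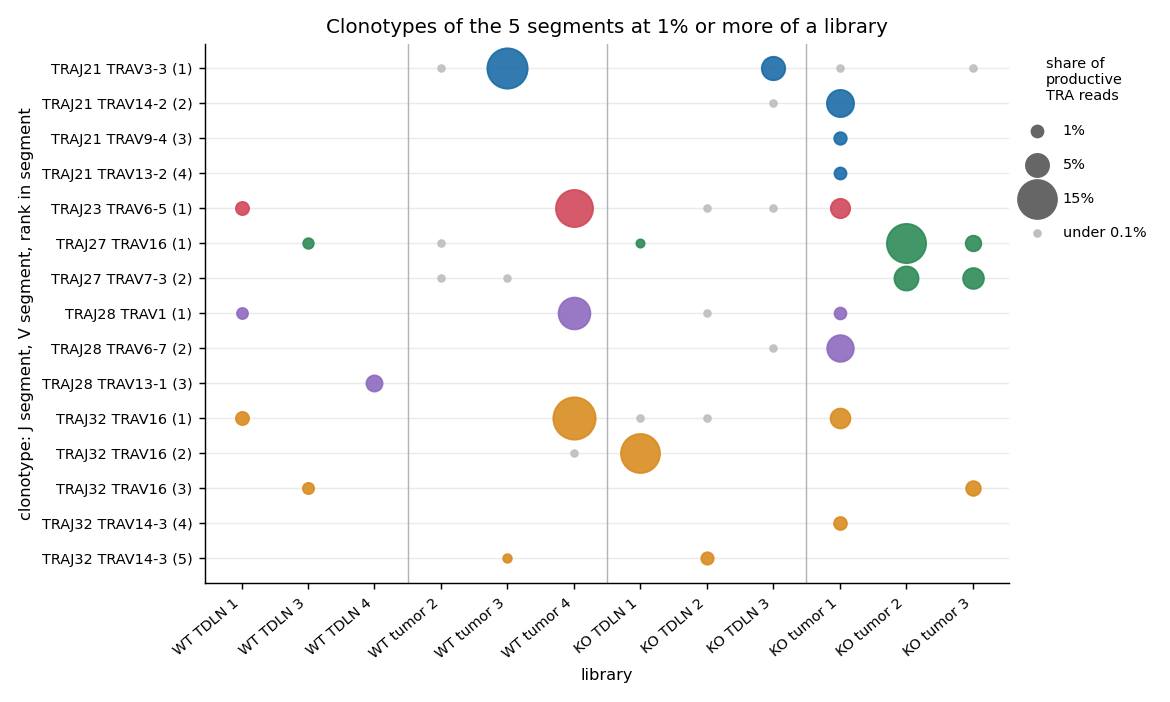
Each row is 1 of the 15 clonotypes at 1% or more of a library, named by J segment, V segment and rank, and each column 1 library; the area of a point grows with its share of productive TRA reads (%), and grey points are under 0.1%. The first TRAJ23, TRAJ28 and TRAJ32 clonotypes appear together in WT TDLN 1, WT tumor 4 and KO tumor 1.

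Leaving the leading sequences out changed which group stood higher in tumor. Without each segment's largest clonotype over all libraries, the 5 segments took 0.685% ± 0.540 of WT tumor and 10.5% ± 7.02 of KO tumor (SD, n = 3 each). Of those 5 sequences, 4 peak in a WT tumor and 1 in a KO tumor, so this count takes more from WT. When each library instead lost its own largest clonotype of each segment, a way of counting added after the values were seen, 0.0221%, 0.794% and 0.887% remained in WT tumor 2, 3 and 4, and 5.65%, 5.87% and 2.42% in KO tumor 1, 2 and 3. All 3 KO tumors then lay above all 3 WT tumors, at 4.65% ± 1.93 against 0.567% ± 0.475. In TDLN the same count gave 1.28% ± 0.491 in WT and 1.57% ± 1.02 in KO. For the other 38 tested segments it gave 12.5% ± 9.20 in WT tumor and 18.5% ± 9.26 in KO tumor, with overlap (3.00% to 21.4% against 8.88% to 27.3%). Most of what remained in KO tumor 2 and 3 were TRAJ27 clonotypes shared between letters, at 5.50% and 2.05%. The height of these 2 libraries above WT tumor 3 and 4 rested on them. Other shared clonotypes remained too, such as TRAV1 with TRAJ28 in KO tumor 1 (0.977%) and TRAV7-5 with TRAJ21 in WT tumor 3 (0.551%). No test was made of this sum, since the segments were chosen with results known.

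Each segment had 1 leading V partner. By mean share over the 12 libraries, TRAV16 gave 89.0% of TRAJ32, followed by TRAV14-3 (5.77%) and TRAV14-2 (1.64%). TRAV1 gave 54.4% of TRAJ28, before TRAV6-7 (31.4%) and TRAV13-1 (10.5%). TRAV16 gave 62.2% of TRAJ27, before TRAV7-3 (32.3%) and TRAV11 (1.88%). TRAV6-5 gave 82.5% of TRAJ23, before TRAV16 (4.28%) and TRAV14-2 (3.15%), and TRAV3-3 gave 61.3% of TRAJ21, before TRAV14-2 (20.1%) and TRAV9-4 (3.24%). V segments encode the other antigen-facing loops of the chain. In all, 8 (TRAJ28) to 20 (TRAJ21) V segments were seen with a J segment. The CDR3 of the first TRAJ23 sequence matched 0 bases of the TRAV6-5 end as read from the rows.

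The leading partner was mostly 1 clonotype for 4 of the 5 segments. The largest clonotype held 98.2% of TRAV1 with TRAJ28, 96.3% of TRAV16 with TRAJ27, 98.2% of TRAV6-5 with TRAJ23 and 96.2% of TRAV3-3 with TRAJ21. For TRAV16 with TRAJ32 it held 54.4%, and the second sequence, with the same residues, held most of the rest: they gave 1.90% and 1.26% of the pairing's mean share of 3.49%. The pairing was listed with 228 CDR3 sequences in 9 libraries, most of them small, and 61.5% of TRAJ32 clonotypes were 1-base variants of a larger one. TRAV16 was also the V segment with the largest mean share over all J segments, 16.2% ± 13.3 (SD, n = 12).

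The CDR3 ends recurred within each J segment, as read from these same rows, so they do not test the J calls. Of productive reads, 97.1% of TRAJ32 ended in YGSSGNKLIF, 99.3% of TRAJ28 in GTGSNRLTF, 97.6% of TRAJ27 in TNTGKLTF, 95.4% of TRAJ23 in YNQGKLIF and 91.9% of TRAJ21 in NYNVLYF. By clonotype the values, in the same order, were 52.4%, 60.6%, 62.1%, 42.5% and 52.7%. The ends differ in length between segments, and the longer NTNTGKLTF ended 61.8% of TRAJ27 reads. TRAJ32 gave the longest loops, with 13 to 17 residues and a mean over reads of 16.9. TRAJ27 had 10 to 16 residues (mean 14.9), TRAJ28 had 14 to 17 (14.1), TRAJ21 had 10 to 15 (12.3) and TRAJ23 had 9 to 16 (10.5). Within a segment the mean over reads was pulled by the leading clonotype, as for TRAJ23, whose first sequence encodes 10 residues. That sequence lacks the opening cysteine codon, so the TRAJ23 mean may not describe whole loops.

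How much of the J end was kept rested on the leading clonotypes. The full J end, as it recurs in a segment's rows, was kept in 83.2% of TRAJ28 reads and in 6.11% of TRAJ32, 3.70% of TRAJ21, 2.76% of TRAJ23 and 1.57% of TRAJ27 reads. The first TRAJ28 sequence, with 75.2% of the segment's productive reads, keeps all 29 bases, and by clonotype 36 of 104 TRAJ28 clonotypes did (15 of 41 without 1-base variants). The TRAJ28 end was read from 6 sequences, against 22 to 26 for the other segments. Its reading stopped at 29 bases because fewer than 5 of the 6 carried it that far, so it may be longer. The 83.2% can therefore not be set beside the other segments as a difference in trimming. The J ends were read from the rows themselves, since no germline sequence was used here. A J end that is always trimmed would be missed. The TRAJ27 end may have been read too long. In a long TRAJ27 row described at the end, the J recombination signal lies directly before a shorter TRAJ27 end. The 1.57% of TRAJ27 may therefore be too low. For 14 of the 15 leading clonotypes a V end could be read in the same way. Between V end and J end these 14 had 0 to 10 bases, with a median of 3. For TRAJ28 this count may be too high, since its J end may be longer than read. By the ends as read, none was left over in 2 of them, the second TRAJ21 sequence and the first TRAJ27 sequence. In the latter 16 bases of the TRAV16 end and 29 of the TRAJ27 end as read meet. For TRAJ27 the count may be too low, since its J end may have been read too long. The exception, the first TRAJ23 sequence, matched no base of its V end, and 11510 TRAJ23 reads did not begin with a cysteine codon. Reads that did begin with one were 13.9% of TRAJ23 and 99.7% to 99.9% of the other 4 segments.

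The number of clonotypes was compared at an equal depth of 15832 productive reads, the size of the smallest library. In tumor TRAJ27 had 2.45, 0.482 and 0 clonotypes in WT 2, 3 and 4, and 0.670, 33.8 and 12.8 in KO 1, 2 and 3. KO tumor 2 and 3 were high and KO tumor 1 lay among the WT libraries, as with the share. The group means for TRAJ27 were 0.978 ± 1.30 in WT tumor and 15.8 ± 16.7 in KO tumor, a difference of 14.8 (SD, n = 3 each, exact two-sided permutation test, p = 0.2, adjusted p = 1 over 43 segments). Without 1-base variants of a larger clonotype the TRAJ27 means were 0.978 ± 1.30 and 6.31 ± 5.41, and KO tumor 2 had 11.5. With all clonotypes, for TRAJ32 the means were 14.4 ± 23.4 in WT tumor and 7.05 ± 7.34 in KO tumor, for TRAJ28 5.44 ± 9.42 and 5.09 ± 8.81, for TRAJ23 6.74 ± 11.7 and 2.08 ± 3.60, and for TRAJ21 10.2 ± 15.8 and 12.8 ± 17.6. Without 1-base variants these means came to 3.64 ± 5.08 and 3.21 ± 3.18 for TRAJ32, 1.77 ± 3.07 and 1.44 ± 2.50 for TRAJ28, 2.69 ± 4.66 and 1.45 ± 2.51 for TRAJ23, and 4.03 ± 5.15 and 4.64 ± 5.47 for TRAJ21. None of the differences with all clonotypes exceeded the spread between libraries, and the exact permutation test gave p = 0.6 to 1 for them, with 0.1 the smallest p that 3 against 3 allows.

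In TDLN the segments had 1.43 ± 1.96 (TRAJ28, KO) to 20.4 ± 25.9 (TRAJ32, KO) clonotypes at the same depth. Tumor and TDLN libraries were compared within genotype by an exact permutation test, which gave p = 0.51 to 0.605 and adjusted p = 0.731 to 0.765 for the 5 segments. Over all 43 segments 12 had an unadjusted p below 0.05 and 0 passed after adjustment.

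Whether the share of a segment differed between KO and WT tumors was tested with edgeR's quasi-likelihood test over 43 segments. The only one of the 5 with a higher fitted share in KO tumor was TRAJ27, at 9.16% ± 10.8 against 0.0233% ± 0.0374 in WT tumor (SD, n = 3 each). Its log2 fold change was 8.60 ± 4.71 (SE, adjusted p = 0.247, edgeR), with 2 of 3 KO tumors above every WT tumor. The means of the other 4 were 6.20% ± 10.5 in WT and 2.49% ± 2.89 in KO tumor for TRAJ32, 3.35% ± 5.80 and 2.63% ± 4.55 for TRAJ28, 4.64% ± 8.04 and 1.14% ± 1.98 for TRAJ23, and 5.65% ± 9.77 and 3.46% ± 5.25 for TRAJ21. Their log2 fold changes were -1.32 ± 3.26, -0.35 ± 3.43, -2.02 ± 3.56 and -0.71 ± 3.35 (SE, adjusted p = 0.908 to 1, edgeR).

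Thus 0 of the 5 segments passed the threshold of 0.05 in tumor, where percent called over all 43 was 0.0. At an unadjusted p below 0.05 the count was 10 of 43 and 0 of the 5. DESeq2 called 3 of 43 (TRAJ22, TRAJ48 and TRAJ52) and limma 1 (TRAJ52), none of them among the 5. In every comparison DESeq2 gave an adjusted p for only 2 of the 5, so it could not call the rest. The median log2 fold change was -0.71 over the 5 and 1.05 over all 43. Shares of KO and WT tumors failed to overlap for 0 of the 5 and for 1 of 43, or 2.33%. The nearby large segments had log2 fold changes of -5.05 ± 2.94 (TRAJ22, adjusted p = 0.285, edgeR) and -1.23 ± 2.86 (TRAJ30, adjusted p = 0.942).

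With an SE of 3.26 to 4.71 on the log2 scale, the 95% interval of each difference (from the SE, on a normal scale) was wide. It ran from -0.64 to 17.84 for TRAJ27 and from -7.70 to 5.07 for TRAJ32, so sizeable changes in either direction were not detectable for TRAJ32 at this number of libraries. The direction of 4 of the 5 also rested on single libraries. Without WT tumor 3 the log2 fold change of TRAJ21 was 8.88, and without WT tumor 4 those of TRAJ23, TRAJ28 and TRAJ32 were 12.17, 13.38 and 4.04. TRAJ27 kept its direction in all alternatives, at 7.08 to 12.16 with 1 tumor library left out, but was 0.91 (adjusted p = 1, edgeR) without sequences shared between letters.

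Without those shared sequences the log2 fold changes of the other 4 in tumor were 0.58 (TRAJ21), -5.74 (TRAJ23), -3.62 (TRAJ28) and -0.60 (TRAJ32), with adjusted p = 0.369 to 1 (edgeR). In WT tumor 4 TRAJ32 then took 14.7%, TRAJ23 4.91% and TRAJ28 4.28% of the reduced total, on 210, 70 and 61 reads. In KO tumor 1 TRAJ21 took 11.1% and TRAJ32 9.50%, on 573 and 489 reads. Only the shared sequences themselves were left out, so their 1-base variants remain unless these are shared too. Of the TRAJ32 clonotypes of WT tumor 4 before this step, 72 of 109 were 1-base variants of a larger one. The 5 segments together then took 12.7% ± 9.70 in WT and 11.2% ± 8.62 in KO tumor, and 4.68% ± 1.70 in WT and 6.53% ± 4.25 in KO TDLN (SD, n = 3 each). The TDLN difference was then 1.85 percentage points, against 5.51 with all clonotypes.

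**Figure D4:**
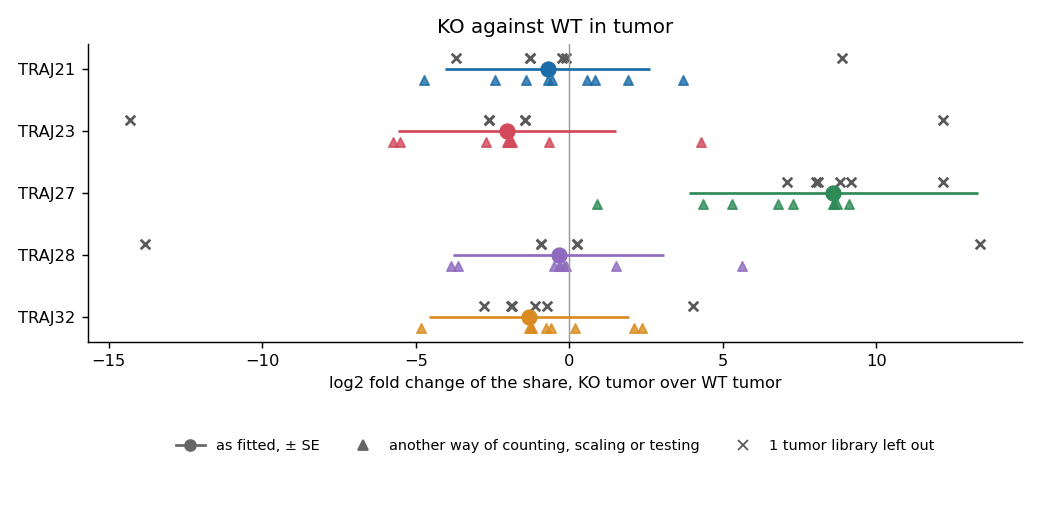
The x axis is the log2 fold change of a segment's share, KO tumor over WT tumor, with 1 row per segment. Round points with bars are the fitted values ± SE, triangles are other ways of counting, scaling or testing, and crosses leave out 1 tumor library; TRAJ27 (8.60 ± 4.71) keeps to the right of 0 and the other 4 have marks on both sides.

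In TDLN, KO minus WT gave log2 fold changes of 3.41 ± 3.66 for TRAJ21, 2.18 ± 3.35 for TRAJ32, -0.21 ± 3.43 for TRAJ23, -0.64 ± 3.40 for TRAJ27 and -3.21 ± 3.73 for TRAJ28 (SE, adjusted p = 0.918 to 0.980, edgeR). Again 0 of the 5 passed, with 0.0 as percent called over 43, 1 of 43 at an unadjusted p below 0.05, and 0 by DESeq2 and limma. TRAJ21 was the 1 of the 5 whose TDLN shares did not overlap, at 0.719% to 6.53% in KO and 0.0947% to 0.506% in WT. Over all segments 5 of 43, or 11.6%, did not overlap. Without sequences shared between letters the TRAJ21 shares did overlap, at 1.03%, 0.0494% and 4.24% in KO 1, 2 and 3 and 0.487%, 1.23% and 0.0970% in WT 1, 3 and 4. TRAJ21 was at 2.69% ± 3.32 in KO TDLN and 0.253% ± 0.221 in WT TDLN (SD, n = 3 each). Of the 3 KO libraries, KO TDLN 1 and 2 are marked as timed out, as are WT TDLN 1 and 3, and the part of this in the result was not tested.

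Between tissues, tumor minus TDLN over both genotypes, 0 of the 5 passed, while 8 of 43 segments (18.6%) did, all 8 lower in tumor. With the replicate number as a block 0 of 43 passed and in limma 2 did. The 5 had log2 differences of -0.04 ± 2.03 (TRAJ27) to 2.93 ± 2.61 (TRAJ28) with adjusted p = 0.592 to 0.994 (SE, edgeR). Their median was 1.39, beside -2.05 over all 43. The difference between the tissues of the KO minus WT change was tested too: 0 of the 5 passed (adjusted p = 0.408 to 0.809, edgeR), with 0.0 as percent called over 43, 7 of 43 at an unadjusted p below 0.05 and 2 called by DESeq2. For TRAJ27 this difference was 9.24 ± 5.56 (SE, log2 scale, adjusted p = 0.408, edgeR).

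For each of the 5 segments the TRAJ segment with the most similar pattern over the libraries was sought. Over the 12 libraries, on the scale log2(share in percent + 0.1), TRAJ21 was nearest to TRAJ30 (Pearson r = 0.857), TRAJ23 to TRAJ2 (0.866), TRAJ27 to TRAJ48 (0.865), TRAJ28 to TRAJ6 (0.698) and TRAJ32 to TRAJ37 (0.657). Among the 5 themselves, TRAJ23, TRAJ28 and TRAJ32 went together, with r = 0.557 to 0.688, and TRAJ27 went against TRAJ28 (r = -0.534) and TRAJ23 (r = -0.472). TRAJ21 lay between -0.195 and 0.032 with the other 4. These values describe 12 libraries in which the shares sum to a fixed total and some libraries, such as WT tumor 4, hold leading clonotypes of several segments.

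Rows out of frame, in which the join shifts the reading frame so that no alpha chain can be made, were frequent for TRAJ21. By rows, 53.2% of TRAJ21 (256 of 481, 95% Wilson interval 48.8% to 57.6%), 31.8% of TRAJ32, 25.4% of TRAJ23, 13.0% of TRAJ27 and 2.75% of TRAJ28 (3 of 109) were out of frame. By reads the values were 58.3%, 27.1%, 8.23%, 4.43% and 0.0293%. The order was the same by rows and by reads. The interval takes rows as separate draws, although 145 of the 256 TRAJ21 rows were 1 sequence and its 1-base relatives. Together the 5 had 520 of 1575 rows out of frame, or 33.0%, against 18.6% for the other 37 tested segments apart from TRAJ7. The frame of TRAJ7 was treated separately. The 520 include those 145 rows of TRAJ21 and 74 rows of the largest out-of-frame TRAJ32 sequence and its 1-base relatives. No value without such rows is given for the other 37. The segments differed widely there as well, from 0% to 70.8% with a median of 17.1%. The 5 held 32.2% of out-of-frame reads when the TRAJ7 reads restored to frame were left out. As deposited, TRAJ7 alone had 44869 out-of-frame reads, against 33357 for the 5. Of the 256 out-of-frame rows of TRAJ21, 242 were 2 bases over a multiple of 3 and 14 were 1 base over.

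A few sequences again carried most of these reads, and the 3 largest are shown with the J end in capitals.
TRAJ21 out of frame, first, TRAV12-3: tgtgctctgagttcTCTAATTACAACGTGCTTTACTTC
TRAJ21 out of frame, second, TRAV1: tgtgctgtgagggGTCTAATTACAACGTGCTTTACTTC
TRAJ32 out of frame, first, TRAV13-1: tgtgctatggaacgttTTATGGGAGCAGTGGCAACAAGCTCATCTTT
The first TRAJ21 sequence, of 38 bases, had 13669 reads in WT tumor 2, or 12.5% of all its TRA reads, and 453 in KO TDLN 1 (0.888%). It was called TRAV12-3 for 10519 reads and TRAV12-2 for 3557, and it held 63.4% of the segment's out-of-frame reads. So WT tumor 2, which had 12 productive TRAJ21 reads, held the segment almost wholly out of frame. The second, also 38 bases, had 3780 reads in WT tumor 3 (4.82% of TRA reads) and 2075 in KO TDLN 3 (4.19%). In the same 2 libraries the first productive TRAJ21 sequence was the largest of its segment. The TRAJ32 sequence, of 47 bases, made up 4.77% of TRA reads in KO TDLN 3 and 3.95% in WT tumor 3, and held most of that segment's out-of-frame reads.

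Without the largest out-of-frame sequence of each segment and its 1-base relatives, the share of rows out of frame was 33.0% for TRAJ21, 21.6% for TRAJ32, 21.9% for TRAJ23, 11.3% for TRAJ27 and 0.935% for TRAJ28. This count was added after the values were seen. TRAJ21 stayed the highest of the 5 and TRAJ28 the lowest, and TRAJ23 and TRAJ32 lay within 1 percentage point of each other.

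**Figure D5:**
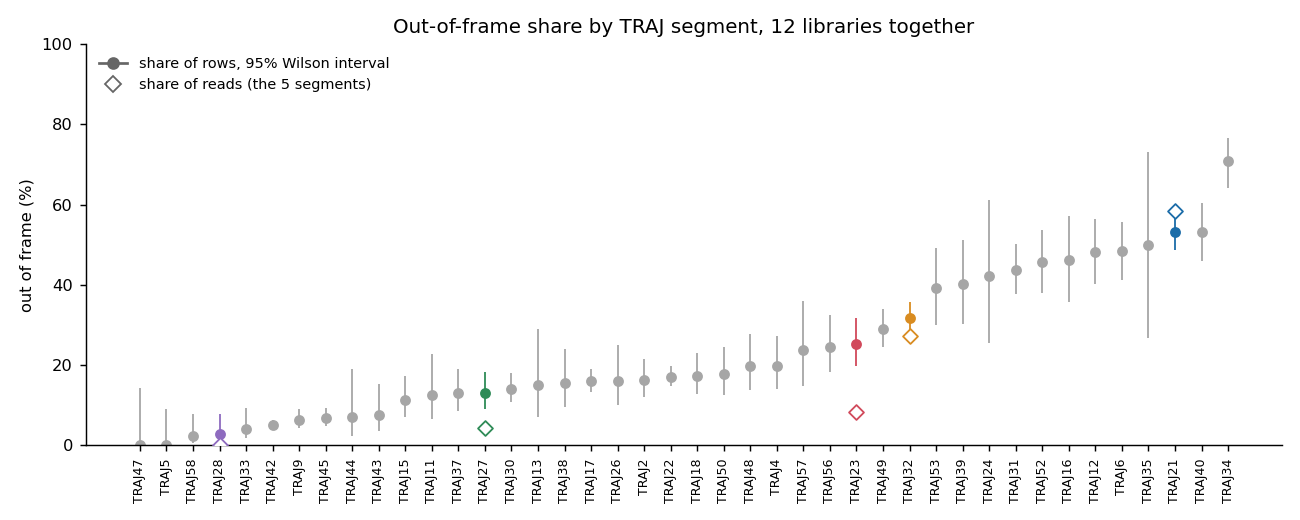
Points give the share of rows out of frame (%) for each tested segment except TRAJ7, with 95% Wilson intervals that cover counting error only, in rising order; colours mark the 5 segments and open diamonds their share by reads. TRAJ28 lies near the low end (2.75%) and TRAJ21 near the high end (53.2%).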

How the data were processed

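PolyA RNA was amplified with primers for the TCR, per the labels' protocols, and the genome build is GRCm39 per the submitters' processing notes. The tables hold TRUST4 report columns, per the file headers, with no version stated there. Each row of the deposited TRA table gives a count of reads of 1 CDR3 rearrangement in 1 library, and beside it the authors' fraction of the library's TRA reads, which was not used for the shares. A second deposited table of all chains, with a count of reads per sequence for 8 libraries, was used only to set read numbers side by side.

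Shares are counts over the productive TRA reads of a library, 85.5% of all TRA reads. Out-of-frame rows and rows holding a stop or an unread base were not counted. TRAJ7 rows whose length was 2 over a multiple of 3 were taken to miss 1 base and kept (6.12% of TRA reads), a rule chosen after values were seen. A J end or V end was read 1 base at a time, starting from its outer end of the CDR3. It grew while at least 5 sequences carried the end so far and at least 50% of them shared the next base. The full end can thus recur in fewer than 5 sequences. The names and order of the genes come from RefSeq annotation of GRCm38.p6, with no coordinates used.

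Read counts per TRAJ segment were tested with edgeR 4.0.16 in R 4.3.3 (quasi-likelihood test, library totals as scale, all 12 libraries in 1 fit with 1 mean per group, Benjamini-Hochberg over 43 segments, threshold 0.05). Segments needed 10 reads in all and 0.1% of at least 1 library. The SE of a log2 fold change is its size over the square root of F. Clonotype numbers were tested by exact permutation over libraries in SciPy 1.17.1. The fit was tested on simulated data, where it recovered changed segments at a small spread between libraries but not at the spread of these libraries, so a count of 0 does not show that shares were alike. Alternatives were TMM scaling, no filter, DESeq2 1.42.0, limma 3.58.1 on log2(share in percent + 0.1), a replicate block, leaving out each library, the largest clonotypes or those shared between letters, the deposited TRAJ7 frame and all rows.

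The segments and lists were chosen with earlier results of these data known. Named are the 5 segments, their clonotypes at 1% or more of a library (at most the 6 largest per segment), their 3 leading TRAV segments, the TRAJ segment with the highest correlation to each, and TRAJ22 and TRAJ30. Same-numbered libraries of the groups deviated together with r between -0.183 and 0.179 in 5 pairs, so the numbers were not taken to pair libraries.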

Additional observations from a re-analysis of the deposited data

Results flagged for a closer look

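One row outside the productive reads drew attention, because it is out of frame and so enters none of the comparisons. It is a TRAJ27 row of 139 bases with TRAV13-2 in WT tumor 3, with 116 reads or 0.148% of the TRA reads of that library. Its first 39 bases equal the whole CDR3 of the TRAJ30 clonotype that took 40.2% of productive reads in the same library, and the 7 bases before its TRAJ27 end are CACTGTG, which is the heptamer of a J recombination signal. The TRAJ27 end in this row is shorter than the end read from all TRAJ27 rows. Over all 12 libraries 10 rows of the 5 segments, with 128 reads, were longer than 60 bases. The whole table of 10521 rows held 25 such rows, with 145 reads.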

How the results depend on the processing

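None of the 5 segments passed the threshold in any of the 22 settings of any of the 4 comparisons. In tumor, KO minus WT, 0 of 43 segments passed in edgeR, 3 in DESeq2 and 1 in limma, and DESeq2 gave an adjusted p for only 2 of the 5. For tumor minus TDLN the 8 calls became 2 in limma, 0 with the replicate block and 5 to 12 with 1 library left out, 5 each without KO TDLN 2 or KO tumor 1 and 12 without KO tumor 3. For the difference between tissues the count was 2 in DESeq2 and 0 to 1 with 1 library left out. Leaving out 1 library gave 0 to 0 for both KO minus WT comparisons of shares and for both of clonotype numbers. For KO minus WT clonotype numbers in tumor no segment could pass. The exact permutation test allowed no p below 0.1, or below 0.2 with 1 tumor library left out. The replicate number as a block gave 0 calls in every comparison of shares, and 2 of 10 libraries correlated best with their own number. With the block the log2 fold change, KO over WT tumor, turned to 1.92 (TRAJ21), 4.29 (TRAJ23), 1.52 (TRAJ28) and 2.11 (TRAJ32). It also turned without each segment's largest clonotype, to 3.69 (TRAJ21), 5.63 (TRAJ28) and 2.38 (TRAJ32), in limma to 0.83 (TRAJ21) and 0.20 (TRAJ32), and without clonotypes shared between letters to 0.58 (TRAJ21). With 1 tumor library left out it ran from -3.69 to 8.88 for TRAJ21, -14.31 to 12.17 for TRAJ23, 7.08 to 12.16 for TRAJ27, -13.84 to 13.38 for TRAJ28 and -2.79 to 4.04 for TRAJ32. The sign turned without WT tumor 3 (TRAJ21), WT tumor 4 (TRAJ23, TRAJ28, TRAJ32) and KO tumor 2 or 3 (TRAJ28, 0.24 each). Where a group keeps no reads the fitted value depends on the prior count. The pooled share, KO minus WT, was -0.98 percentage points in tumor (-10.9 to 10.2 with 1 library left out) and 5.51 in TDLN (1.70 to 8.76). In TDLN it was 0.0132 with TRAJ7 as deposited and 0.289 without each library's own largest clonotypes. The out-of-frame share moved by reads to 58.3% (TRAJ21), 8.23% (TRAJ23), 4.43% (TRAJ27), 0.0293% (TRAJ28) and 27.1% (TRAJ32). Without the largest out-of-frame sequence it moved to 33.0% (TRAJ21), 0.935% (TRAJ28) and 21.6% (TRAJ32), and without single reads to 0% for TRAJ28. The cause of these shifts was not tested. Depth limits shares below 0.00316% to 0.0189%, the 3-read limits of the libraries.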

Other observations

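The second deposited table of all chains lists the leading CDR3 sequences with other read numbers. Over 18 pairs of a leading sequence and a library, its reads were 0 to 1.94 times those of the TRA table, with a median of 0.871. The first TRAJ23 sequence had 9402 reads in WT tumor 4 in the TRA table and 9456 in the second, and the first TRAJ27 sequence had 6454 and 6190 in KO tumor 2. The first TRAJ21 sequence had 9115 and 0 reads in WT tumor 3, with all V calls summed.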
